A study of Mus musculus with 5 samples.

Results

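The genes described here are 10 members of the interleukin-12 and interleukin-1 families, out of 21990 genes in a deposited expression table of RAW264.7, a macrophage-like cell line of the mouse. They were taken by symbol: Il23a, Il12a, Il12b, Ebi3 and Il27 of the IL-12 family, the IL-1 family ligands Il1a, Il1b and Il18, the antagonist Il1rn and the decoy receptor Il1r2. In the CD137 group mouse Cd137 was expressed along with Renilla luciferase; the control group had only Renilla luciferase, which both groups therefore carried. CD137 (4-1BB), the product of Tnfrsf9, belongs to the TNF receptors and co-stimulates T cells. Of the 3 CD137 and 2 control samples of the series, the values used here come from CD137 replicates 2 and 3 and control replicate 2. Nothing in the labels says whether the libraries came from separate cultures or clones, so the spread between the CD137 libraries may be technical, and the control, a single library, has no error of its own. Values are FPKM, a level per transcript length and library total, and means are given ± SD of the 2 CD137 libraries.

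The members were chosen with the values of this comparison known. Their differences between CD137 and control cells are therefore a description, and no test is given for them.

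Cytokines of the IL-12 family are heterodimers. IL-23 joins p19 (Il23a) to p40 (Il12b), IL-12 joins p35 (Il12a) to the same p40, IL-27 joins p28 (Il27) to EBI3, and IL-35 joins p35 to EBI3. Macrophages and dendritic cells make IL-12, IL-23 and IL-27 after microbial or TNF-family stimulation, and IL-23 and IL-12 steer T cell responses. The IL-1 family ligands IL-1 alpha, IL-1 beta and IL-18 act through receptors that signal by MyD88 and IRAK kinases; IL-1 beta and IL-18 are made as precursors that caspase-1 can cleave. IL-1 is also known to promote osteoclast formation, and IL-18 and IL-27 to restrain it.

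The introduced gene checked the labels: Tnfrsf9 was at 364 and 370 FPKM in CD137 replicates 2 and 3, against 5.06 FPKM in the control. The libraries were of similar depth, estimated at 0.983 and 0.988 of the control for CD137 replicates 2 and 3. Of 10 macrophage markers 9 reached 1 FPKM in some library, and only Mertk did not. In the limma fit described below 4 of these 9 rose and 4 fell, beside 24.4 and 18.2 percent of all expressed genes. Cd68, which fell, had a limma adjusted p of 0.00935, and 0.0605 without the variance trend of that fit. Adgre1, Itgam, Fcgr1 and Ptprc rose, to 1.33, 1.38, 2.05 and 1.32 times the control. Cd68, Csf1r, Lyz2 and Cd14 fell, to 0.869, 0.770, 0.389 and 0.784 of the control. The 10 markers summed to 1964 and 2012 FPKM in CD137 replicates 2 and 3, against 3122 FPKM in the control. Most of that gap was Lyz2, the lysozyme gene, at 646 and 669 FPKM in the CD137 libraries and 1693 FPKM in the control; without it the sums were 1318 and 1343 FPKM in the CD137 libraries and 1429 FPKM in the control. None of the lymphocyte (8) or neutrophil (6) markers reached 1 FPKM. In bulk RNA, fewer cells of a type and less RNA per cell cannot be told apart. Epithelial markers stood apart in CD137 replicate 2. The 7 epithelial and fibroblast markers summed to 6.55 FPKM there and 1.32 FPKM in CD137 replicate 3, against 0.78 FPKM in the control. The fibroblast genes Col1a1, Col1a2 and Pdgfra were at 0.13 FPKM or less in every library. None of the 7 was at 0 in every library, and the keratin gene Krt8 was at 2.60 and 0.66 FPKM in CD137 replicates 2 and 3, against 0.25 FPKM in the control. The part of these markers in the results below was not tested; values of single libraries are given throughout.

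Of the 10 members, 8 had a value and 5 were expressed, meaning 1 FPKM or more in at least 1 library: Il23a, Ebi3, Il27, Il18 and Il1rn. Il1a, Il1b and Il1r2 stayed below that level, and Il12a and Il12b had no value in any library. Both CD137 libraries lay above the control for 5 of 5 expressed members. The same held for 49 percent of the 10720 expressed genes, and since the members were chosen on these values nothing is read from the count. No expressed member had both CD137 libraries below the control, as 40.2 percent of expressed genes had. Of the 8 members with a value 6 had both CD137 libraries above the control and 0 below; over all 16003 genes with a value the shares were 43.5 and 34 percent. The median log2 fold change of the expressed members was 0.64 on the log2(FPKM + 1) scale, beside 0.03 for all expressed genes. Il23a and Il27 reached 1 FPKM only in the CD137 libraries, and over all 8 members with a value the median was 0.32. On that scale 3 of the 5 (Il23a, Ebi3 and Il27) were at least 1.5-fold higher, as were 5.21 percent of expressed genes, and 1, Il23a, was at least 2-fold higher, as were 1.07 percent. The log2(FPKM + 1) scale understates the change of low genes such as Il27.

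**Figure D1:**
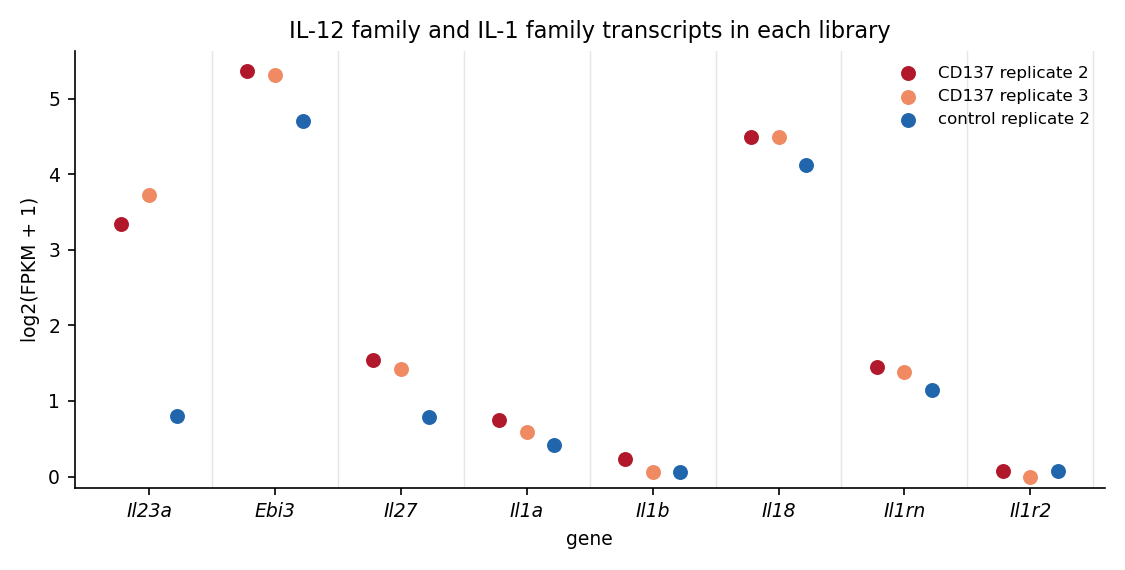
Level of each of the 8 members with a value, as log2(FPKM + 1) on the vertical axis, with 1 point per library: CD137 replicates 2 and 3 (red and orange) and control replicate 2 (blue). Ebi3 and Il18 are the most abundant members in all 3 libraries, Il23a shows the widest gap between the CD137 libraries and the control, and Il1b and Il1r2 lie near 0.

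Ebi3 encodes the EBI3 subunit shared by IL-27 and IL-35 and was the most abundant member. The gene (ID 50498) spans bases 55952623 to 55957022 of chromosome 17 (mm10, plus strand). Its promoter is shown as that of the IL-12 family member with the highest level, beside Il12b and Il12a, the 2 members with no value, and Il18, the most abundant IL-1 family member. The windows run from 250 bases before to 50 bases after the start site, from RefSeq on GRCm38.p6 (the mm10 assembly), in the direction of the gene, on the plus strand in all 4. Capitals mark matches on either strand, overlapping ones included, to a loose NF-kB (kappaB) motif (GGG, any 5 bases, then CC), an AP-1 motif (TGANTCA) or an interferon-response core (GAAA, any 2 bases, then GAAA).
Ebi3 promoter, chr17:55952373-55952672: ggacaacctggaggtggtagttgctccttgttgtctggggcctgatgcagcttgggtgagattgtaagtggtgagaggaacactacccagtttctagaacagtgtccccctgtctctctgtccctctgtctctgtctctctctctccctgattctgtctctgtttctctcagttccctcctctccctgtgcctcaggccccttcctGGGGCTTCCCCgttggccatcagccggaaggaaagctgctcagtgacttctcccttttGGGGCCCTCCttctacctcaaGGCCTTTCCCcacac
Il12b promoter, chr11:44399813-44400112: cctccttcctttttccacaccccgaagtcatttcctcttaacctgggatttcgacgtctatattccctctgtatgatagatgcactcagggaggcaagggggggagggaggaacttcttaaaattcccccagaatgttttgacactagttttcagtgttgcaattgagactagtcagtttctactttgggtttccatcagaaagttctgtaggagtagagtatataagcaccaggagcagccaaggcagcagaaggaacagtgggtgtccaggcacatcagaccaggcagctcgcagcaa
Il12a promoter 2 of 2, chr3:68691174-68691473: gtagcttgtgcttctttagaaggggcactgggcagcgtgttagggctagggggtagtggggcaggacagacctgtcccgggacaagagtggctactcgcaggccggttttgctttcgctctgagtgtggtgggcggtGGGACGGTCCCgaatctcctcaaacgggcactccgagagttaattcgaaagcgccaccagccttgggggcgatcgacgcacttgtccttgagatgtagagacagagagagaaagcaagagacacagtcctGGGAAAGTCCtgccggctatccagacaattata
Il18 promoter, chr9:50554450-50554749: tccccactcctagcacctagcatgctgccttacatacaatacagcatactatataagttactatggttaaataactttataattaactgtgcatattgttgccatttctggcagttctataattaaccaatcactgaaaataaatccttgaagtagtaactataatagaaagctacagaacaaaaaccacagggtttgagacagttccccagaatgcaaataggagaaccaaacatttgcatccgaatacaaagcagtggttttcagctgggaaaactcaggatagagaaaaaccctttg

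The Ebi3 window held 4 kappaB matches, 2 of which overlap at 44 and 43 bases before the start, and no match to the other motifs. A kappaB match occurs in 50.8 percent of the 32851 promoter windows of the same length, and 4 or more occur in 6.65 percent. The window of Il12a, a gene with no value, held 3 kappaB matches, 2 of them overlapping, and the other window of Il12a held none of the 3 motifs. The Il12b and Il18 windows held none of the 3 motifs either. The AP-1 and interferon-response motifs occur in 7.81 and 3.44 percent of windows. Promoters were found for 8 of the 10 members; Il23a and Il27 had no entry. A match is a description of letters and says nothing of binding.

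Il23a encodes p19, the subunit particular to IL-23. The gene (ID 83430) spans bases 128296140 to 128298084 of chromosome 10 (mm10, minus strand). Its level was 9.11 and 12.2 FPKM in CD137 replicates 2 and 3, against 0.75 FPKM in the control. Both CD137 libraries were far above the control, and replicate 3 was above replicate 2. At 10.6 ± 2.17 FPKM (SD, n = 2), the mean of CD137 cells was 14.2 times the control level. The log2 fold change of 2.72 on the log2(FPKM + 1) scale was the 3rd highest of 10720 expressed genes. That rank is only a description, since Il23a was chosen with its values known and reached 1 FPKM only in the CD137 libraries. Whole reads could be solved from the deposited p-values: 215 and 289 reads in CD137 replicates 2 and 3, against 18 reads in the control. Per unit of depth the reads gave a ratio of 14.2, with a 95% exact counting interval of 8.90 to 24.2. All such intervals cover counting error only and not the variation between cultures.

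Il23a also differed between the CD137 libraries. The difference of 0.38 on the log2(FPKM + 1) scale (replicate 3 minus replicate 2) was large for these libraries, since 134 of the expressed genes, or 1.25 percent, had one of at least this size. The median size over all expressed genes was 0.06. In the authors' deposited table the Poisson test between these 2 libraries gave Il23a p = 0.00119, and 0.0721 after the authors' adjustment. The log2 fold change over the control was 2.53 with CD137 replicate 2 alone and 2.91 with replicate 3 alone, so its distance from the control was large in either library. Replicate 2, where the epithelial markers were higher, had the lower Il23a level.

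**Figure D2:**
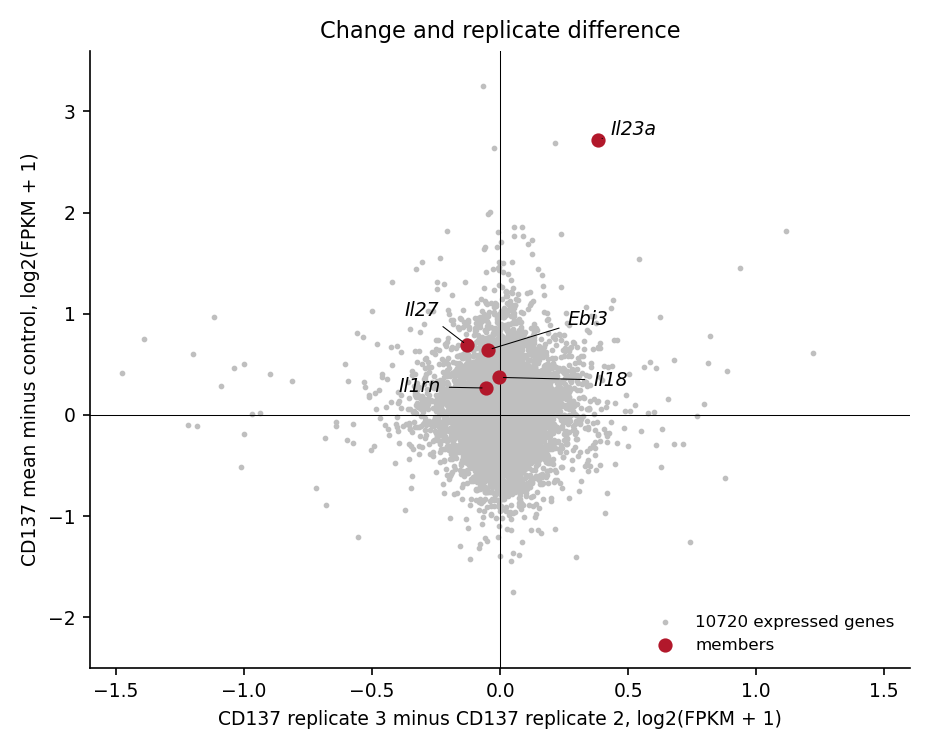
Difference between the CD137 libraries (horizontal axis, replicate 3 minus replicate 2) and difference of the CD137 mean from the control (vertical axis), both on the log2(FPKM + 1) scale, for 10720 expressed genes (grey; 9 lie outside the frame) and the 5 expressed members (red). Il23a lies at 2.72 above the control and 0.38 to the right, while Ebi3, Il27, Il18 and Il1rn lie between 0.27 and 0.69 on the vertical axis with replicate differences of at most 0.13 in size.

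Neighbouring genes did not share the size of the Il23a difference. Of 13 listed genes within 100 kb, 8 were expressed, and their log2 fold changes ran from -0.54 (Timeless, a replication fork protein) to 0.38 (Coq10a). Stat2, an interferon signal transducer that lies 3.29 kb away, was at 8.08 and 8.09 FPKM in CD137 replicates 2 and 3, against 7.87 FPKM in the control. In the table's coordinates none of the 13 overlaps Il23a.

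**Figure D3:**
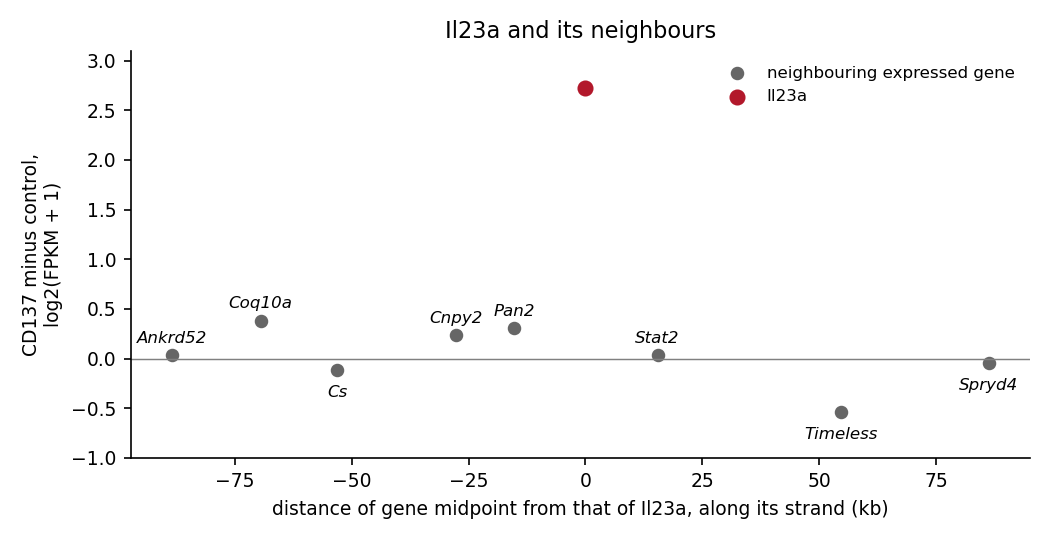
Log2 fold change of CD137 over control on the log2(FPKM + 1) scale (vertical axis) of Il23a (red) and the 8 expressed genes within 100 kb (grey), by the distance of their midpoints from that of Il23a along its strand in kb. The neighbours lie between -0.54 and 0.38, and Il23a at 2.72.

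By the distance between pairs of log2 fold changes, 1 for each CD137 library, the expressed genes most like Il23a were Bcl2a1a, Car6, Gstt1, Cd40 and Lcn2. Bcl2a1a, a BCL2-family survival gene with near-identical copies between which reads may be split, was closest at a distance of 0.13. It was at 28.2 and 33.0 FPKM in CD137 replicates 2 and 3, against 3.90 FPKM in the control, and like Il23a was higher in replicate 3. The other 4 lay between 0.31 and 1.08 away. Gstt1 and Lcn2, at 0.60 and 0.27 FPKM in the control, reached 1 FPKM only in the CD137 libraries. Cd40 and Lcn2 had smaller log2 fold changes than Il23a, 2.01 and 1.99. This likeness rests on 2 points that share 1 control library.

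The p40 and p35 subunits, which IL-23 and IL-12 need, were given no value. Il12b (p40; gene ID 16160, bases 44400063 to 44414677 of chromosome 11) and Il12a (p35; gene ID 16159, bases 68690644 to 68698550 of chromosome 3), both on the plus strand, carried no value in any of the 3 libraries. The file does not say what a missing value means; among genes with values, 0 had 0 FPKM in all 3 libraries. If a missing value stands for no reads, the limit that a count of 0 allows, 3 reads in a library, would amount to about 0.136 FPKM for Il12a and 0.0708 FPKM for Il12b, judged from the FPKM per read of other genes.

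The IL-27 subunits were both listed. Ebi3 was at 40.3 and 38.9 FPKM in CD137 replicates 2 and 3, against 24.99 FPKM in the control. The CD137 libraries differed little from each other and lay above the control, with a CD137 mean of 39.6 ± 0.93 FPKM (SD, n = 2), 1.58 times the control, and a log2 fold change of 0.64. Its p-values allowed 4 sets of reads, from 755 to 788 in CD137 replicate 2 and 751 to 784 in replicate 3, against 493 to 520 in the control. The read ratios of these sets ran from 1.53 to 1.55. Ebi3 overlaps Zfp119b, a zinc finger gene on the opposite strand, over 3556 bases in the table. Zfp119b was at 2.34 and 1.90 FPKM in CD137 replicates 2 and 3, against 2.45 FPKM in the control. Overlaps given here are of whole gene spans, introns included. Strandedness is not given in the sources used here, so reads from any shared exon stretch may not be told apart. In the GENCODE annotation, antisense or other overlapping transcripts also lie at Ebi3, Il1a, Il1b and Il1r2, but Zfp119b is not among those at Ebi3.

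Il27 (gene ID 246779, bases 126589009 to 126595021 of chromosome 7, minus strand) encodes p28 and was far less abundant than its partner. It was at 1.92 and 1.67 FPKM in CD137 replicates 2 and 3, against 0.73 FPKM in the control. Both CD137 libraries were above the control, at a mean of 1.80 ± 0.18 FPKM (SD, n = 2) and a ratio of 2.46. The recovered reads were 28 and 29 in CD137 replicates 2 and 3, against 15 in the control, and gave a smaller ratio of 1.93 with a 95% exact counting interval of 1.08 to 3.67. The FPKM value of 1 read differed between libraries, at 0.0686 and 0.0576 in CD137 replicates 2 and 3, against 0.0487 in the control. The reads of Il27 were found only at the widest departure from the FPKM ratios that the search allowed. If they are right, the FPKM ratio of Il27 is not a ratio of reads alone. On the FPKM scale Ebi3 stood at 21.0 and 23.3 times Il27 in CD137 replicates 2 and 3, against 34.2 times in the control. Il27 overlaps Apobr, a lipoprotein receptor gene on the opposite strand, over 104 bases, and Apobr was at 28.0 and 29.3 FPKM in CD137 replicates 2 and 3, against 25.3 FPKM in the control.

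**Figure D4:**
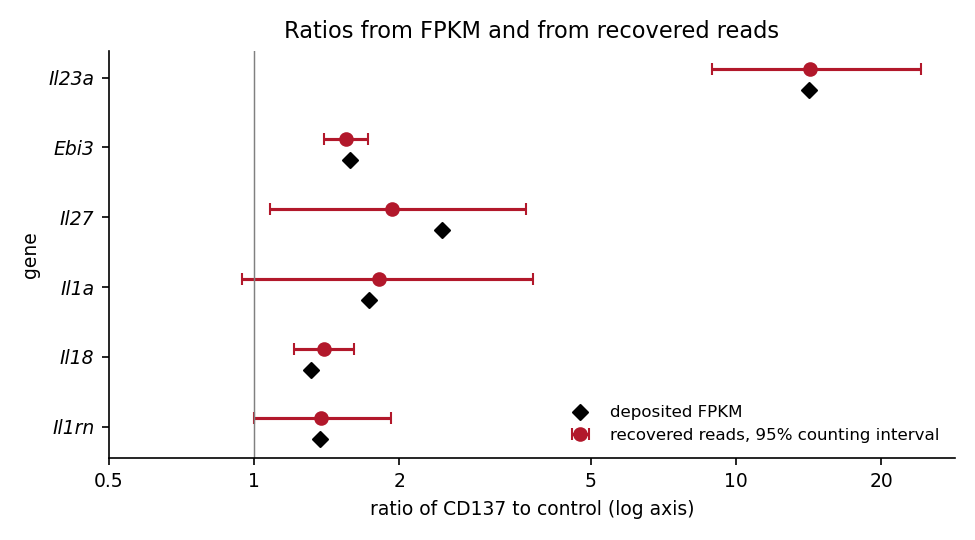
Ratio of CD137 to control on a log axis for 6 members, from the deposited FPKM (black diamonds) and from recovered reads per depth (red circles, with 95% exact counting intervals); for Ebi3 the first of 4 possible sets of reads is drawn. The FPKM and read ratios lie close together for Il23a, Ebi3, Il1a and Il1rn, and for Il27 the FPKM ratio of 2.46 lies to the right of the read ratio of 1.93.

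Among the IL-1 family ligands, Il18 was the only expressed member. Il18 (gene ID 16173, bases 50554705 to 50581841 of chromosome 9, plus strand) encodes interleukin-18, an inducer of interferon-gamma. It was at 21.6 and 21.5 FPKM in CD137 replicates 2 and 3, against 16.4 FPKM in the control. The CD137 libraries were nearly equal and lay above the control. The mean of 21.5 ± 0.04 FPKM (SD, n = 2) was 1.31 times the control, with a log2 fold change of 0.37. The reads, 370 and 367 in CD137 replicates 2 and 3 and 268 in the control, gave a ratio of 1.40, with a 95% exact counting interval of 1.21 to 1.61. Il18 overlaps Bco2, a carotenoid oxygenase gene on the opposite strand, over 517 bases in the table. Bco2 was at 8.17 and 7.83 FPKM in CD137 replicates 2 and 3, against 6.2 FPKM in the control. Il18 also overlaps Tex12, a meiotic gene, over 4121 bases, and Tex12 was at 0.09 and 0 FPKM in CD137 replicates 2 and 3, against 0 FPKM in the control.

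Il1a (gene ID 16175) and Il1b (gene ID 16176) lie on the minus strand of chromosome 2, at bases 129299609 to 129310877 and 129363842 to 129371170. Il1a, the IL-1 alpha gene, was at 0.68 and 0.50 FPKM in CD137 replicates 2 and 3, against 0.34 FPKM in the control. These values stand for 24 and 19 reads in the CD137 libraries and 12 reads in the control. Both CD137 libraries were above the control, but the read ratio of 1.82 had a 95% exact counting interval of 0.942 to 3.79, which includes 1. Il1b, the IL-1 beta gene, was at 0.17 and 0.04 FPKM in CD137 replicates 2 and 3, against 0.04 FPKM in the control. That is 4 reads and 1 read in the CD137 libraries and 1 read in the control, and the ratio of 2.54 had an interval of 0.284 to 120. The groups overlapped, and no difference in Il1b was detectable at this depth. The CD137 library with more Il1a and Il1b reads, replicate 2, was the one with the higher epithelial markers. For both genes the 95% counting intervals of the 2 CD137 libraries overlap, and a link to the markers was not tested.

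The antagonists were low as well. Il1rn (gene ID 16181, bases 24336860 to 24351491 of chromosome 2, plus strand) encodes the IL-1 receptor antagonist, which occupies the IL-1 receptor without signalling, and was at 1.72 and 1.62 FPKM in CD137 replicates 2 and 3, against 1.22 FPKM in the control. Both CD137 libraries were above the control, with a mean of 1.67 ± 0.07 FPKM (SD, n = 2) and a ratio of 1.37. The reads were 73 and 71 in the CD137 libraries and 53 in the control, and the read ratio of 1.38 had a 95% exact counting interval from 0.9997 to 1.93, which includes 1. On the FPKM scale Il1rn stood at 2.53 and 3.24 times Il1a in CD137 replicates 2 and 3, against 3.59 times in the control. Il1r2 (gene ID 16178, bases 40083308 to 40125230 of chromosome 1, plus strand), the decoy receptor that binds IL-1 without signalling, was at 0.05 and 0 FPKM in CD137 replicates 2 and 3, against 0.05 FPKM in the control, from 1 read, 0 reads and 1 read. The groups overlapped.

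The order of levels from highest to lowest in CD137 cells was Ebi3, Il18, Il23a, Il27, Il1rn, Il1a, Il1b and Il1r2. The CD137 ranges of Il27 and Il1rn overlapped, at 1.67 to 1.92 and 1.62 to 1.72 FPKM, although Il27 was above Il1rn within each CD137 library. Il1b and Il1r2 likewise overlapped in range, with Il1b above Il1r2 within each CD137 library. In the control the order differed, with Ebi3 and Il18 followed by Il1rn at 1.22, Il23a at 0.75, Il27 at 0.73 and Il1a at 0.34 FPKM. Il23a and Il27 stood close together in the control, and in the CD137 libraries Il23a was well above Il27.

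Genes around these cytokines were described with 7 lists holding 106 listed genes, of which 73 were expressed. "Rose" and "fell" are used here for genes with an adjusted p under 0.05 in a limma fit of log2(FPKM + 1) over all 10720 expressed genes, in which 24.4 percent rose and 18.2 percent fell. Of the 73 genes, 24 rose, 8 fell and 41 did not pass, with a median log2 fold change of 0.08. The fit has 1 residual degree of freedom and takes its spread from the CD137 libraries alone, so the control is assumed to vary as they do. A limma fit of all 16003 genes with a value made 0 calls, with 5281 genes at an unadjusted p under 0.05.

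Of 7 expressed receptors and signal transducers of the IL-12 family 3 rose and 0 fell (median log2 fold change 0.18). Tyk2, the kinase bound to the shared IL-12 receptor chain, was at 20.6 and 22.4 FPKM in CD137 replicates 2 and 3, against 15.65 FPKM in the control (log2 fold change 0.43 ± 0.07 SE, limma adjusted p = 0.00863). Jak2, its partner at the IL-12 and IL-23 receptors, rose 1.32-fold and Stat3, which IL-23 activates, 1.23-fold. Jak1 was at 37.3 and 35.6 FPKM in CD137 replicates 2 and 3, against 34.4 FPKM in the control, and did not pass. Il23r, the receptor chain particular to IL-23, and Stat4, which IL-12 activates, had no value in any library.

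Among IL-1 family receptors and the IL-18 binding protein, the ST2 gene had the widest difference. Of 5 expressed genes 2 fell, 0 rose and 3 did not pass (median -0.21). Il1rl1 encodes ST2, the receptor of IL-33. It was at 6.5 and 5.92 FPKM in CD137 replicates 2 and 3, against 12.3 FPKM in the control, and the CD137 mean was 0.504 of the control level (log2 fold change -0.89 ± 0.08 SE, limma adjusted p = 0.00206). Il18rap, the accessory chain of the IL-18 receptor, was at 30.3 and 32.4 FPKM in CD137 replicates 2 and 3, against 36.4 FPKM in the control. It fell to 0.862 of the control (limma adjusted p = 0.0411, and 0.0872 without the variance trend). Its partner Il18r1, the ligand-binding chain, was at 0.09 and 0.18 FPKM in the CD137 libraries and 0.15 FPKM in the control. The signalling receptor Il1r1 was at 2.37 and 2.05 FPKM in CD137 replicates 2 and 3, against 3.13 FPKM in the control, and did not pass (limma adjusted p = 0.0561). Il1r1 was, however, called lower after rescaling and also without the variance trend. Sigirr, an inhibitory receptor, and Il1rap, the shared accessory chain, were at means of 17.9 ± 1.48 and 6.49 ± 0.35 FPKM in CD137 cells (SD, n = 2), against 15.9 and 5.77 FPKM in the control, and did not pass. Among the other IL-1 family ligands the one expressed gene was Il1f9, which encodes IL-36 gamma, at 7.22 and 7.02 FPKM in CD137 replicates 2 and 3, against 8.29 FPKM in the control, and it did not pass (limma adjusted p = 0.0793).

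Downstream of the receptors, 4 of 19 expressed genes of IL-1 receptor signalling rose, 1 fell and 14 did not pass (median 0.01). The adaptor Myd88 was at 34.01 and 37.45 FPKM in CD137 replicates 2 and 3, against 27.3 FPKM in the control, a rise of 1.31-fold (limma adjusted p = 0.0129). Tollip, an adaptor that restrains IRAK signalling, rose 1.31-fold, Tab2, which couples TRAF6 to the kinase TAK1, 1.26-fold, and the kinase gene Irak2 1.24-fold. The limma adjusted p of Irak2 was 0.0296, and 0.0628 without the variance trend. Tnfaip3, which encodes the NF-kB inhibitor A20, fell to 0.780 of the control.

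Processing genes were mixed. Of 16 expressed inflammasome and processing genes 6 rose, 2 fell and 8 did not pass (median 0.12). Casp4, which encodes mouse caspase-11, the sensor of cytosolic lipopolysaccharide, was at 52.6 and 57.5 FPKM in CD137 replicates 2 and 3, against 17.6 FPKM in the control. At 55.0 ± 3.42 FPKM (SD, n = 2), the CD137 mean was 3.14 times the control, with a log2 fold change of 1.59 ± 0.07 (SE, limma adjusted p = 0.000755). Casp1, which cleaves the IL-1 beta and IL-18 precursors, rose to 35.1 and 37.7 FPKM in CD137 replicates 2 and 3, against 28.1 FPKM in the control, and the apical caspase gene Casp8 rose 1.29-fold. The sensor genes Nlrp3 and Nlrp1b fell to 0.749 and 0.818 of the control. The sensor gene Aim2 rose 1.14-fold, though it did not pass without the variance trend. Nlrp1a and Nlrc4, also sensor genes, did not pass. Pycard, which encodes the inflammasome adaptor ASC, was at 0 and 0.05 FPKM in CD137 replicates 2 and 3, against 0 FPKM in the control, from 2 reads in all; RAW264.7 cells are known to lack ASC.

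Of 18 expressed transcription factors known to act at IL-12 or IL-1 family genes 8 rose, 2 fell and 8 did not pass (median 0.14). Fos, an AP-1 subunit, was at 8.93 and 8.56 FPKM in CD137 replicates 2 and 3, against 2.66 FPKM in the control (log2 fold change 1.41 ± 0.08 SE, limma adjusted p = 0.000875). Batf, another AP-1 family member, was at 4.65 and 4.82 FPKM in CD137 replicates 2 and 3, against 1.27 FPKM in the control, a rise of 3.73-fold. The non-canonical NF-kB genes Nfkb2 and Relb rose 2.47-fold and 2.25-fold. Rel, the c-Rel gene known for its role at Il23a and Il12b, fell to 0.697 of the control (limma adjusted p = 0.0303, and 0.0534 without the variance trend), and Irf8, a regulator of Il12b, fell to 0.799.

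Of 7 other expressed macrophage cytokines 3 rose, 1 fell and 3 did not pass (median 0.04). One of the 3, Csf2, reached 1 FPKM only in the CD137 libraries, and with a filter at 5 FPKM, which leaves out Csf2 and Csf1, 1 gene, Osm, rose. Osm, encoding oncostatin M, was at 9.82 and 10.4 FPKM in CD137 replicates 2 and 3, against 4.03 FPKM in the control, a rise of 2.50-fold. Csf1, the M-CSF gene, rose 2.55-fold. Csf2, the GM-CSF gene, was at 1.08 and 1.28 FPKM in CD137 replicates 2 and 3, against 0.17 FPKM in the control. Its reads, 16 and 21 in the CD137 libraries and 3 in the control, gave a ratio of 6.26 with a 95% exact counting interval of 1.98 to 31.7. Il16 fell to 0.818 of the control. Tnf was at 22.4 and 23.4 FPKM in CD137 replicates 2 and 3, against 22.2 FPKM in the control, and did not pass.

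**Figure D5:**
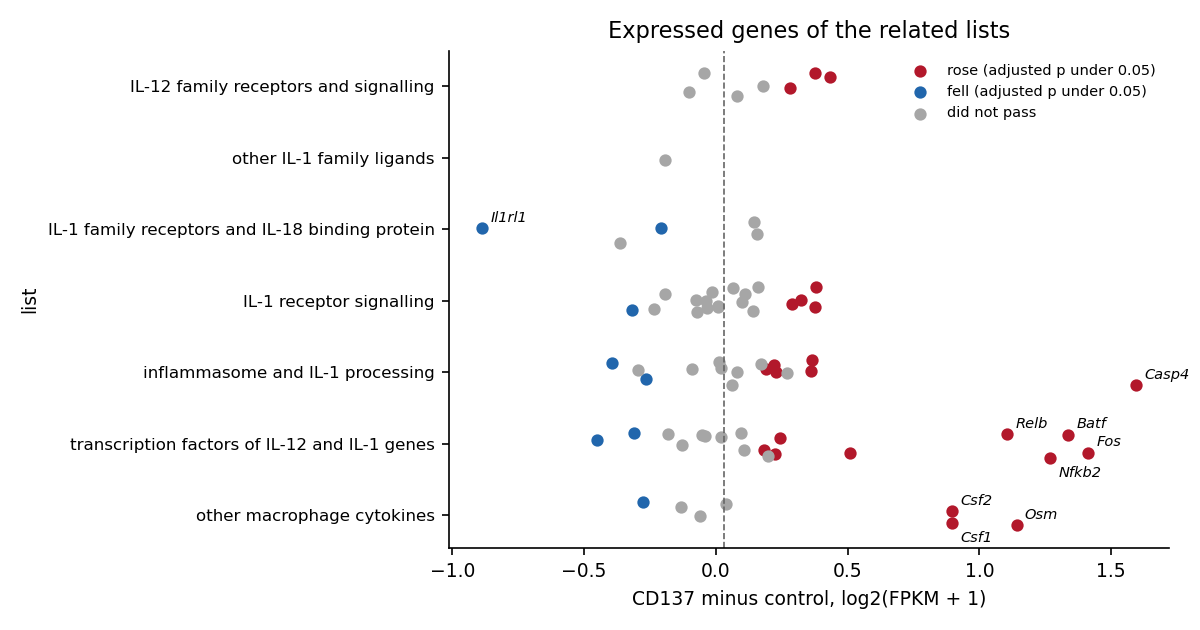
Log2 fold change of CD137 over control on the log2(FPKM + 1) scale (horizontal axis) for each expressed gene of the 7 lists (rows; vertical scatter within a row has no meaning), coloured by the limma call at an adjusted p under 0.05; the dashed line is the median of all expressed genes, 0.03. Casp4, Fos, Batf, Nfkb2, Relb and Osm lie to the right of 1, and Il1rl1 is the farthest to the left at -0.89.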

How the data were processed

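Expression of 1 control and 2 CD137 libraries of RAW264.7 cells was analysed; groups and replicate numbers come from the sample titles, and replicate 1 of either group was not analysed here. The authors' table gives FPKM for each library to 0.01, with log2 ratios, Poisson p-values and adjusted values (used as a score) for each pair of libraries, per the file headers. The submitters' processing notes name HISAT2, Bowtie2, RSEM and mm10 and give no roles or versions. Libraries were made with oligo-dT beads, per the labels. FPKM is relative to the library, so a shift of abundant genes would move the others. Of 21990 genes 5987 had no value, and 1 broken line was left out.

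All genes at 1 FPKM or more in some library (10720) were fitted with limma 3.58.1 in R 4.3.3 on log2(FPKM + 1), with a mean-variance trend and Benjamini-Hochberg adjustment over all of them. In simulated data for this comparison, fitted over 10606 genes, a change of 1.2-fold was called in 8 percent of genes, 1.5-fold in 76 percent, 2-fold in 98 percent and 4-fold in 100 percent, as were 0 percent of unchanged genes. That simulation gave the control the same small spread as the CD137 libraries, a spread set by hand and not estimated from the data. It assumed more reads per FPKM than were recovered here. Only 50 genes were changed at each fold, whereas 42.6 percent of expressed genes were called in the data. Its percentages therefore need not hold for these libraries. Whole reads were solved from the 3 deposited p-values, the FPKM ratios and the transcript length, which gave 1 solution for 138 of 182 genes tried. Reads could depart from the FPKM ratios by a fraction of 0.06, widened to 0.2 and then 0.7 where no solution was found. Among the members, Il18 was solved only at 0.2 and Il27 only at 0.7. In simulations 99.6 percent of 241 genes, and 100 percent of 100 low genes with unequal FPKM per read, had 1 solution, all of them right. Intervals are exact and conditional on the total reads.

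The members and lists were chosen with earlier results of these data known. Genes of each list were named as the 4 called genes with the largest absolute log2 fold change, filled up with the most abundant genes of the list. Genes called but not among these, neighbours and overlapping genes, and Il6, Tnf, Pycard, Lyz2, Zbtb46, Itgae, Krt8, Il1r1, Il18r1, Il23r, Stat4, Nlrp1b, Irak2, Rel and Irf8 were chosen after their values were seen. The same holds for Il18bp, Nlrp1a, Nlrc4, Col1a1, Col1a2 and Pdgfra. Genes nearest to Il23a were ranked over all expressed genes, passing over predicted genes. Alternatives were another pseudocount (0.1), other filters, rescaling, no variance trend and leaving out a CD137 library.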

Additional observations from a re-analysis of the deposited data

How the results depend on the processing

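No paired analysis was possible because only replicate number 2 is shared by the groups. With all 16003 genes with a value the limma fit called 0 genes higher and 0 lower, and 0 pathway genes in either direction. There 5281 genes had an unadjusted p under 0.05, and the smallest adjusted p was 0.0802. Every "rose" or "fell" thus depends on leaving out low genes by a filter. A filter at 5 FPKM in place of 1 FPKM gave 2442 genes called higher and 1964 lower. Under the other 4 settings (5 FPKM, pseudocount 0.1, rescaling, no variance trend) the calls ran from 2174 to 2618 higher and from 1627 to 2291 lower, and pathway calls from 20 to 24 higher and from 8 to 12 lower. Of 56 counts of single lists under these settings, 53 stayed within 1.5 times, and the largest difference was 2 genes. The exceptions were the higher count of other cytokines at 5 FPKM (1, against 3), the lower count of transcription factors without the variance trend (1, against 2; Rel was lost) and the lower count of IL-1 signalling genes after rescaling (2, against 1). The 53 include counts that were 0 under both settings. An equal count can also hide a swap of genes. Among IL-1 family receptors without the variance trend, Il1r1 was called lower and Il18rap was not. With a pseudocount of 0.1 the log2 fold change was 3.65 for Il23a, 1.19 for Il27 and 0.64 for Il1a. Leaving out a CD137 replicate gave Il23a 2.53 to 2.91; with 1 library a side no test remains. Recovered reads in place of FPKM, an alternative chosen after seeing the data, changed the ratio of Il27 to 1.93 and that of Il18 to 1.40. The single control library limits every difference, and depth limits Il1b and Il1r2.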

Other observations

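Il6, the interleukin-6 gene, chosen here after its values were seen, was at 0.61 and 0.43 FPKM in CD137 replicates 2 and 3 and listed at 0 in the control. These values stand for 12 and 8 reads in the CD137 libraries and 0 reads in the control. Set against a floor of 3 reads in the control library, the CD137 reads per unit of depth were 3.38-fold higher. This ratio leaves out the counting error of the CD137 reads, so it is not a lower limit. The gene stayed below 1 FPKM and was not among the genes tested.

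Zbtb46, a transcription factor known as a marker of classical dendritic cells, was the 1 expressed gene of 7 dendritic cell markers. It was at 1.36 and 1.45 FPKM in CD137 replicates 2 and 3, against 0.64 FPKM in the control, so it reached 1 FPKM only in the CD137 libraries, and its test is not given. Without Zbtb46 the list summed to 0.73 and 0.71 FPKM in the CD137 libraries and 0.77 FPKM in the control. Itgae, an integrin chain of some dendritic cells, was at 0.45 and 0.38 FPKM in the CD137 libraries and 0.54 FPKM in the control.

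The inhibitor of IL-18, Il18bp, was at 0.32 and 0.53 FPKM in CD137 replicates 2 and 3, against 0.65 FPKM in the control, so on the FPKM scale Il18 stood at 67.4 and 40.6 times Il18bp in CD137 replicates 2 and 3, against 25.3 times in the control. The counts behind Il18bp were 8 and 11 reads in the CD137 libraries and 14 reads in the control.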
